A study of Mus musculus with 17 samples.

Results

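Transcripts of the proteasome were followed in macrophages sorted from mouse mammary tumors and in marrow myeloid cells. The genes were taken by symbol: every entry of the count table named Psma to Psmg followed by a number was a member, which gave 48 of the 10207 genes with a symbol. The set held 7 alpha ring subunits, 7 constitutive beta ring subunits, 3 immunoproteasome catalytic subunits (Psmb8, Psmb9 and Psmb10) and 3 genes of the PA28 activator (Psme1, Psme2 and the copy Psme2b). It also held 3 other activators or inhibitors, 8 subunits of the base and 9 of the lid of the 19S regulatory particle, 7 assembly chaperones, and Psmc3ip, a meiotic recombination factor that shares the naming pattern but is no proteasome subunit. The thymus subunit Psmb11 and the testis subunit Psma8 were not analysed here.

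The proteasome is the protease that degrades ubiquitin-tagged proteins in the cytosol and nucleus. Its 20S core is a barrel of stacked alpha and beta rings with catalytic sites on the beta subunits, and the 19S particle recognises, unfolds and feeds in the substrate. In cells exposed to interferon gamma, and constitutively in many leukocytes, Psmb8, Psmb9 and Psmb10 take the places of Psmb5, Psmb6 and Psmb7, and the PA28 ring of Psme1 and Psme2 can cap the core, which favours peptides that fit MHC class I molecules.

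All cells came from female BALB/c mice. Tumor-associated macrophages (TAM, 3 libraries) were sorted as CD11b+ Gr1- F4/80+ from tumors that grew after 100000 4T1-luc cells, a luciferase-tagged line of a mouse mammary carcinoma, had been placed in the fat pad. BMDM_T (4 libraries) were CD11b+ Gr1+ F4/80low marrow cells of mice with such tumors, and BMDM_H (4 libraries) were cells of the same gate from mice without a tumor. Label ages were 8 weeks for both tumor groups, which the treatment text gives as the age at injection, and 12 weeks for BMDM_H. The design text speaks of mice matched for age, and the age at collection is not given for the tumor groups, so if the ages did differ, tumor and age cannot be told apart in the marrow. The mammary gland macrophages and 4 further BMDM_H libraries, all of batch 2, carry no gene names that match their counts and were not analysed here.

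Library totals ran from 387940 (BMDM_H replicate 4) to 3747929 (TAM replicate 3). The levels below are CPM, counts relative to the total over the 7518 genes tested, scaled with TMM factors. The marrow cells are labelled as monocytes, but the summed level of 15 neutrophil genes was 140200 to 214500 CPM in the 8 marrow libraries and 384 to 615 CPM in TAM. The sum of 14 macrophage genes was 71920 to 84180 CPM in TAM and 2608 to 4356 CPM in marrow. Tumors were digested with collagenase A whereas marrow was flushed and treated for red cell lysis, and 13 dissociation and heat shock genes summed to 7883 to 8233 CPM in TAM and 2868 to 5337 CPM in marrow. Each contrast of TAM with marrow therefore joins tissue, cell type, gate and preparation, which cannot be told apart, and in such bulk samples neither can fewer cells of a type and less RNA per cell. The share of these in any difference below was not tested.

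Start-site sequences are shown for 3 of the 5 immunoproteasome and PA28 genes, picked with their levels and motif matches known. Promoter windows of 250 bases before to 50 bases after the RefSeq start site (GRCm38.p6, the assembly of mm10) were found for 41 of the 48 genes. They were searched on both strands for the interferon-stimulated response element core (a pair of GAAA separated by any pair of bases), the palindromic gamma-activated site core TTCNNNGAA and the antioxidant response core TGANNNNGC. The sequences run from 250 bases before to 30 bases after the start site, with the match in capitals: a gamma-activated site core for Psmb8 (chr17:34197945-34198224, plus strand), a response element core on the opposite strand for Psme1 (chr14:55578244-55578523, plus strand), and no match to either for Psmb9 (chr17:34187301-34187580, minus strand).
Psmb8: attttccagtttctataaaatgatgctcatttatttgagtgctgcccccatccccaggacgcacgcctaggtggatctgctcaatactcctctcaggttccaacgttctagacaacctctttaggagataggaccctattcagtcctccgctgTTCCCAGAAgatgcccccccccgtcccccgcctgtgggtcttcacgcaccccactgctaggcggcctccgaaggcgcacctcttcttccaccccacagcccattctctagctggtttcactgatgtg
Psme1: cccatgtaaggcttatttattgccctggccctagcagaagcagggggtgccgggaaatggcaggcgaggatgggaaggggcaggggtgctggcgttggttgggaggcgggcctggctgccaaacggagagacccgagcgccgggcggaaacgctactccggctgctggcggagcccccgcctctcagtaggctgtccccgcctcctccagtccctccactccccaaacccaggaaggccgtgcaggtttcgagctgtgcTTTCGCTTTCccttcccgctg
Psmb9: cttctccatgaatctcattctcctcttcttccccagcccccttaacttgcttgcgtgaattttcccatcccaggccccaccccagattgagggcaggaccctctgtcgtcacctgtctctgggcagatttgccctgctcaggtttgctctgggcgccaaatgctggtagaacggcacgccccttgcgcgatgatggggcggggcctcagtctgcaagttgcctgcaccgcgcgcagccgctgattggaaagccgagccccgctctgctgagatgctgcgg
The Psmb8 match began 97 bases before the start site, a position written as -97 in these windows. The Psme1 match lay 9 bases after the start site. Antioxidant cores were left in lower case, such as the Psmb9 match at -60. A response element core was present in 5 of the 41 member windows (12.2%; Psmb3, Psmd4, Psmd9, Psme1 and Psmg4), against 3.99% of 27025 genes with a window. A gamma-activated site core was present in 3 (7.32%; Psmb8, Psmd2 and Psmg1), against 9.55%, and an antioxidant core in 23 (56.1%), against 45% of all genes. Psmb10, with the largest difference of the members below, had a window with no match to any of the 3 motifs. Psme2 had an antioxidant core alone. Whether matches go with levels was not tested. These are matches of letters in a window and say nothing of binding.

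Psmb9 and Psmb8 lie in the class II region of the MHC on chromosome 17, in the order Psmb9 (34181987 to 34187764, minus strand), Tap1 (34187553 to 34197225, plus strand), Psmb8 (34197721 to 34201454, plus strand) and Tap2 (34203527 to 34216321, plus strand) in GENCODE M21 on mm10. The RefSeq start sites of Psmb9 and Tap1 are 226 bases apart on opposite strands, so their promoter windows share 275 bases. Psme1 (chromosome 14, 55578123 to 55581529, plus strand) and Psme2 (55587441 to 55591113, minus strand) are close neighbours, and Psmb10 is on chromosome 8 (105935735 to 105938444, minus strand). The GENCODE spans of Psmb8, Psmb9 and Psme1 begin upstream of their RefSeq promoter windows, at 34197721, 34187764 and 55578123. Sequence around those starts was not searched for motifs outside the windows.

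The immunoproteasome and PA28 genes were compared first, since they are the part of the complex tied to antigen presentation. Psmb8, Psmb10, Psme1 and Psme2 were each higher in TAM than in both marrow groups, by 1.83-fold to 3.44-fold, and for these 4 genes every TAM library lay above every marrow library. Such results were common: of all genes tested, 30.1% were called higher against BMDM_T and 28% against BMDM_H. Every TAM library lay above every BMDM_T library for 30.4% of all genes, and above every BMDM_H library for 27.5%. Psmb9 differed less and passed the test only against BMDM_H. The comparisons of TAM with BMDM_T and with BMDM_H share the TAM libraries and are not independent of each other.

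Psmb8, the interferon-inducible subunit with chymotrypsin-like activity, stood at 931, 1065 and 1157 CPM in TAM replicates 1 to 3. In BMDM_T it stood at 419, 445, 404 and 447 CPM, and in BMDM_H at 497, 438, 398 and 370 CPM. The marrow groups overlapped and no TAM library came near them. The log2 difference was 1.29 ± 0.16 (SE) against BMDM_T (adjusted p = 6.54e-07, edgeR quasi-likelihood test with Benjamini-Hochberg adjustment) and 1.30 ± 0.16 against BMDM_H (adjusted p = 7.75e-07).

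Psmb10, which replaces the trypsin-like subunit Psmb7, gave the largest difference of the members in both comparisons. Its level was 646, 702 and 808 CPM in TAM, 180, 193, 218 and 245 CPM in BMDM_T, and 225, 230.0, 238 and 294 CPM in BMDM_H. The highest marrow library thus held less than the lowest TAM library by a wide margin. The log2 difference was 1.78 ± 0.17 against BMDM_T (3.44-fold, adjusted p = 1.29e-08) and 1.55 ± 0.17 against BMDM_H (2.93-fold, adjusted p = 1.22e-07).

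Psmb9, which replaces Psmb6, lay closer to its marrow level. It stood at 416, 364 and 413 CPM in TAM, at 340.2, 285, 271 and 381 CPM in BMDM_T, and at 318, 212, 214 and 305 CPM in BMDM_H. BMDM_T replicate 4 lay above TAM replicate 2, so those groups overlapped, while all TAM libraries lay above all BMDM_H libraries. The log2 difference was 0.32 ± 0.18 against BMDM_T (adjusted p = 0.138) and 0.60 ± 0.18 against BMDM_H (adjusted p = 0.0081). With the replicate number as a block the first became 0.42 (adjusted p = 0.0282), and with scaling to total counts alone 0.47 (adjusted p = 0.0248), both past the threshold of 0.05.

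Psme1 and Psme2 encode the alpha and beta subunits of the PA28 ring. Psme1 stood at 850, 802 and 1071 CPM in TAM, at 359, 413, 388 and 318 CPM in BMDM_T, and at 504, 396, 365 and 409 CPM in BMDM_H. Psme2 stood at 512, 599 and 782 CPM in TAM, at 202, 286, 316 and 291 CPM in BMDM_T, and at 317, 295, 402 and 375 CPM in BMDM_H. Both genes were above every marrow library in every TAM library. Against BMDM_T the log2 difference was 1.30 ± 0.17 for Psme1 (adjusted p = 1.62e-06) and 1.20 ± 0.19 for Psme2 (adjusted p = 1.57e-05). Against BMDM_H it was 1.11 ± 0.17 (adjusted p = 1.32e-05) and 0.87 ± 0.19 (adjusted p = 0.000591). The counting of Psme2 is uncertain, because the transcript of Psme2b on chromosome 11 (48945354 to 48946190, minus strand) is 99.4% identical to it over 794 bases. Psme2b itself stood at 32.8 to 47.0 CPM in TAM and 24.8 to 37.8 CPM in BMDM_T, and its difference of 0.35 did not pass the test (adjusted p = 0.18).

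Summed over the 3 catalytic immunosubunits, the level was 2168 ± 195 CPM in TAM (SD, n = 3), 957 ± 79.2 in BMDM_T (SD, n = 4) and 934 ± 86.7 in BMDM_H (SD, n = 4). Psme1 and Psme2 together gave 1538 ± 273 CPM in TAM, 643 ± 70.0 in BMDM_T and 765 ± 54.5 in BMDM_H. For both sums the lowest TAM library, at 1993 and 1361 CPM, was above the highest marrow library, at 1073 and 821 CPM.

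**Figure D1:**
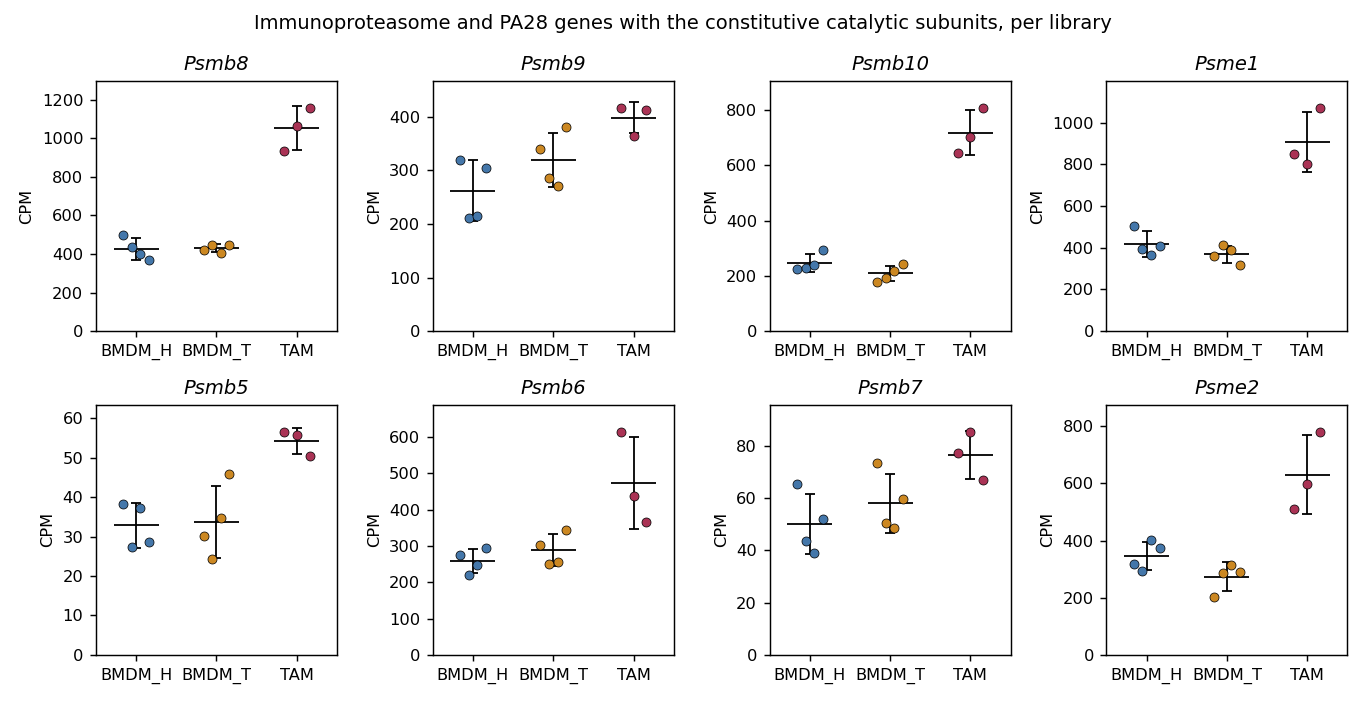
Level in CPM (vertical axis, from 0) of Psmb8, Psmb9, Psmb10, Psme1 and Psme2 and of the constitutive subunits Psmb5, Psmb6 and Psmb7 in each library of BMDM_H (4), BMDM_T (4) and TAM (3). Points are libraries, lines the mean and bars 1 SD; TAM points of Psmb8 (931 to 1157 CPM) are clear of the marrow points (370 to 497 CPM), while those of Psmb9 (364 to 416 CPM) overlap BMDM_T (271 to 381 CPM).

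The neighbours in the MHC region are given side by side. Tap1, which pumps peptides into the endoplasmic reticulum with Tap2, stood at 548 ± 95.8 CPM in TAM (SD, n = 3) and 178 ± 16.7 in BMDM_T (SD, n = 4), a log2 difference of 1.63 ± 0.16 (adjusted p = 2.64e-08). Tap2 stood at 248 ± 40.3 and 211 ± 18.4 CPM, with a difference of 0.23 ± 0.16 (adjusted p = 0.213). In chromosome order the log2 differences from BMDM_T were thus 0.32 for Psmb9, 1.63 for Tap1, 1.29 for Psmb8 and 0.23 for Tap2, and from BMDM_H 0.60, 1.58, 1.30 and 0.35. Whether these genes differ from one another was not tested. Exons of Psmb9 and Tap1 overlap on opposite strands, and the strand setting of the counting is not given in the sources used here. Reads in the overlap could thus belong to either gene. The overlap lies at the start of both genes, whereas the libraries were of 3'-end mRNA. How many reads fell there was not tested.

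Transcripts of each immunosubunit and of the subunit it replaces were compared within a library as a log2 ratio of counts, which does not depend on scaling. These are ratios of RNA, and the exchange of subunits in the assembled complex was not measured. Psmb10 over Psmb7 was 3.06, 3.04 and 3.59 in TAM, 1.29, 1.93, 2.16 and 2.03 in BMDM_T, and 1.78, 2.39, 2.58 and 2.47 in BMDM_H. All TAM libraries exceeded all marrow libraries, with a mean difference of 1.38 from BMDM_T and 0.92 from BMDM_H. Each reached p = 0.0571 in the exact two-sided permutation test, which is the smallest p that 3 against 4 libraries can give, and 0.171 after adjustment over the 9 ratio tests. Exons of Psmb7 overlap those of Nek6 on the opposite strand, so reads in that overlap could belong to either gene, and their part in the ratio was not tested.

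For Psmb8 over Psmb5 the log2 ratio was 4.03, 4.25 and 4.52 in TAM, 3.77, 4.17, 3.52 and 3.27 in BMDM_T, and 3.69, 3.98, 3.39 and 3.63 in BMDM_H. TAM replicate 1 lay below BMDM_T replicate 2, so those groups overlapped (difference 0.58, exact permutation p = 0.114, adjusted p = 0.257), while TAM was clear of BMDM_H (difference 0.60, exact permutation p = 0.0571, adjusted p = 0.171). Psmb5 itself rose in TAM, from 33.8 ± 9.16 CPM in BMDM_T (SD, n = 4) to 54.3 ± 3.37 (SD, n = 3).

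The mean Psmb9 to Psmb6 ratio was not higher in TAM. It was -0.56, -0.26 and 0.17 in TAM, 0.16, 0.18, 0.09 and 0.15 in BMDM_T, and 0.21, -0.05, -0.21 and 0.05 in BMDM_H. TAM replicates 1 and 2 lay below all marrow libraries and replicate 3 lay among them. The mean difference was -0.36 from BMDM_T (exact permutation p = 0.229) and -0.22 from BMDM_H (exact permutation p = 0.343), with adjusted p of 0.294 and 0.386. Psmb6 was 367 to 615 CPM in TAM and 251 to 344 CPM in BMDM_T, so the subunit that Psmb9 replaces was higher in TAM too. No ratio test between BMDM_T and BMDM_H passed adjustment, the smallest exact permutation p of the 3 being 0.143 for Psmb10 over Psmb7 (-0.45), where 4 against 4 libraries could have reached 0.0286. Within pairs of the same replicate number that ratio differed by -0.49, -0.46, -0.42 and -0.44, lower in BMDM_T in 4 of 4 pairs. The exact paired sign-flip permutation test gave p = 0.125, the smallest that 4 pairs can give, and 0.375 after adjustment over the 3 ratios.

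**Figure D2:**
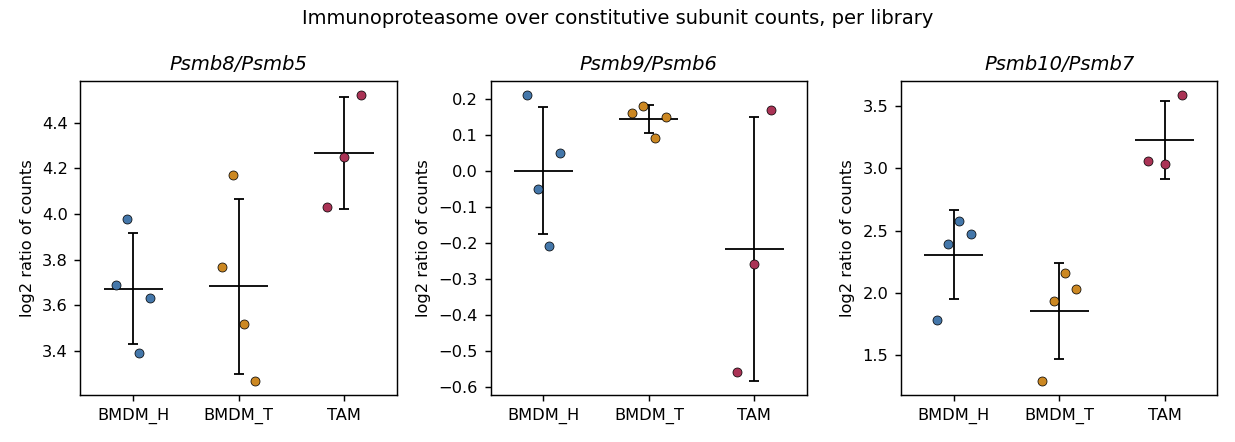
Log2 ratio of the counts of each immunosubunit to the constitutive subunit it replaces (vertical axis, ranges differ between panels) in each library of BMDM_H (4), BMDM_T (4) and TAM (3); points are libraries, lines the mean and bars 1 SD. TAM points for Psmb10 over Psmb7 (3.04 to 3.59) are above all marrow points (1.29 to 2.58), and those for Psmb9 over Psmb6 (-0.56 to 0.17) are not.

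Across all members, 46 of the 48 had enough counts to be tested. Psmd9, an assembly chaperone, had 10 counts over the TAM libraries, 2 over BMDM_T and 9 over BMDM_H. Psmf1, an inhibitor of the core, had 51, 15 and 18. Against BMDM_T, 17 of 46 members were higher in TAM and 2 lower, or 37% and 4.35%. Of the 7518 genes tested, 58.9% differed, 30.1% higher and 28.7% lower, so the share of members called higher was a little above that of all genes and the share called lower was below it. The median log2 difference of the members was 0.35, and 0.34 without the 5 immunoproteasome and PA28 genes, beside 0.03 over all genes. For 16 members every TAM library was above every BMDM_T library (30.4% of all genes), and for 1 every TAM library was below (27.7%).

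Against BMDM_H, 24 of 46 members were higher in TAM and 1 lower, or 52.2% and 2.17%, where 56.3% of all genes differed, 28% higher and 28.3% lower. The median of the members was 0.60, and 0.50 without the same 5 genes, beside 0.02 over all genes. The libraries did not overlap and TAM was higher for 22 members (27.5% of all genes), and for 0 was TAM lower in this sense (26.4%). The members share their libraries and are not independent of each other, so these counts describe them and were not tested as a set.

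**Figure D3:**
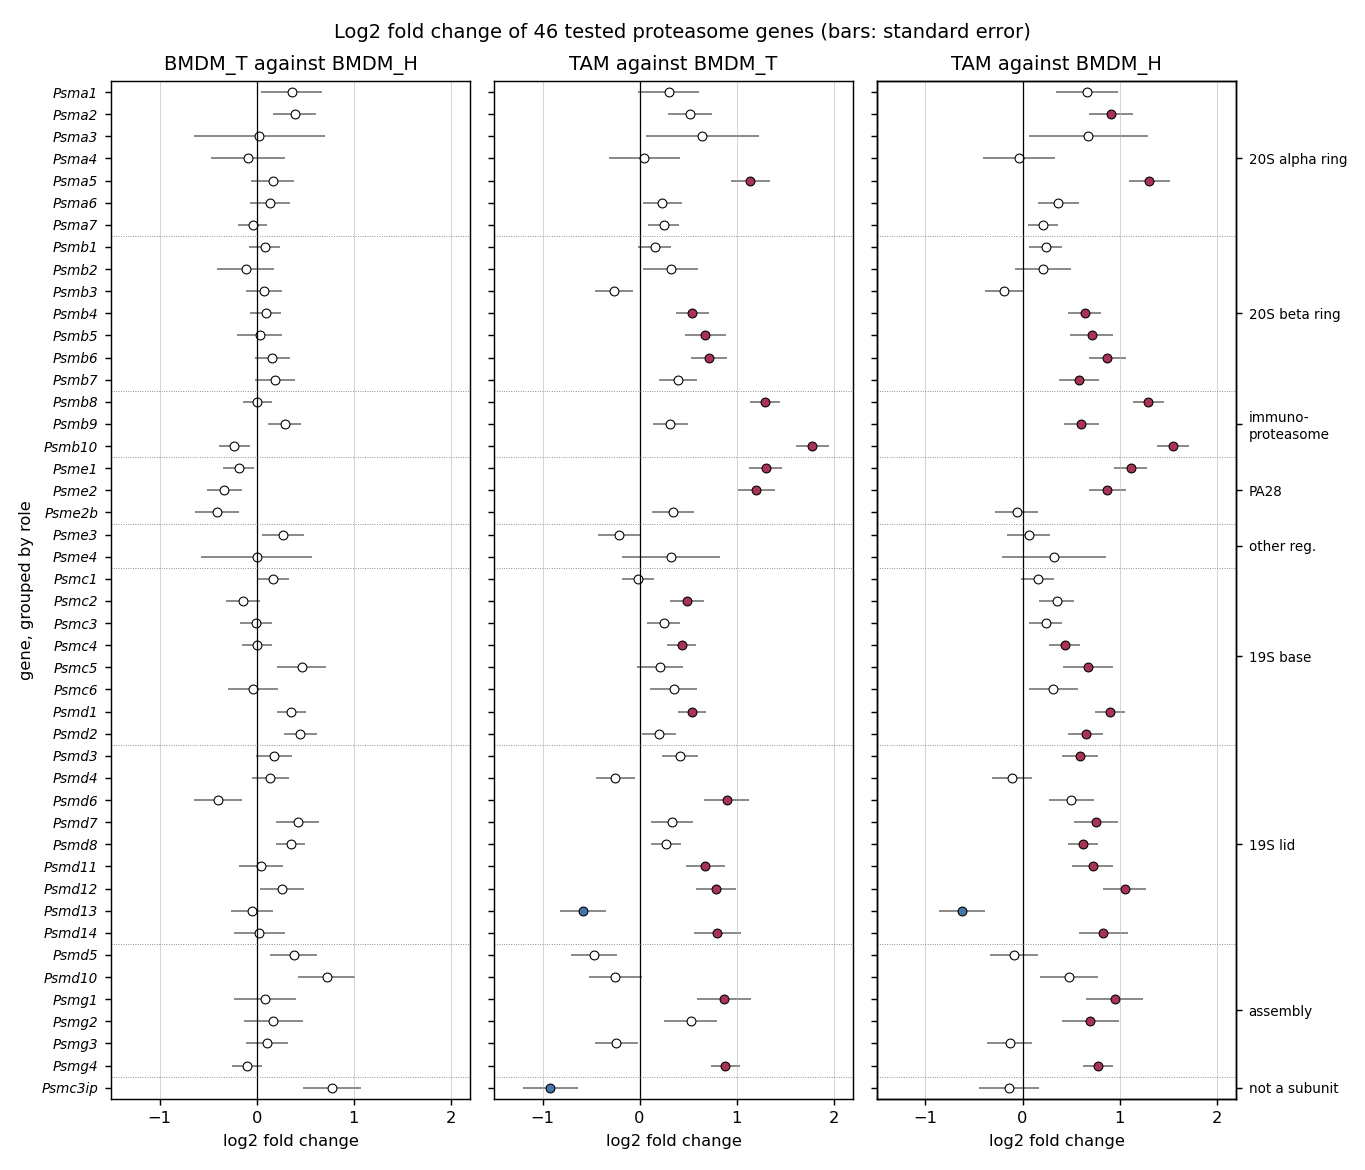
Log2 fold change (horizontal axis) of the 46 tested members by role for BMDM_T against BMDM_H, TAM against BMDM_T and TAM against BMDM_H; points are estimates, bars 1 standard error, red points passed as higher, blue as lower and white points did not pass at an adjusted p of 0.05. No point is filled in the first comparison, 19 are in the second and 25 in the third, with Psmb10 farthest to the right (1.78 and 1.55).

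In the 20S core, 1 of 7 alpha ring genes was higher against BMDM_T and 2 of 7 against BMDM_H. For these and the later counts by role, the share of all genes called higher was 30.1% against BMDM_T and 28% against BMDM_H. Psma5, an alpha ring subunit, stood at 117, 160.2 and 196 CPM in TAM, 49.5, 93.3, 75.0 and 67.7 CPM in BMDM_T, and 71.6, 59.5, 52.1 and 72.9 CPM in BMDM_H. All 3 TAM libraries were above all 8 marrow libraries. Its log2 difference was 1.14 ± 0.21 against BMDM_T (adjusted p = 7.89e-05) and 1.31 ± 0.21 against BMDM_H (adjusted p = 3.04e-05), the largest outside the immunoproteasome and PA28 genes.

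Psma2, another alpha ring subunit, stood at 258, 269 and 382 CPM in TAM, 285, 245, 148 and 170 CPM in BMDM_T, and 188, 186, 154 and 102 CPM in BMDM_H. TAM overlapped BMDM_T through BMDM_T replicate 1 and was clear of BMDM_H. The log2 difference was 0.91 ± 0.23 against BMDM_H (adjusted p = 0.00209) and 0.52 ± 0.22 against BMDM_T (adjusted p = 0.0522). The latter passed in 7 of 20 alternative analyses, among them scaling to total counts alone (0.67, adjusted p = 0.0149) and leaving out BMDM_T replicate 1 (0.67, adjusted p = 0.0152). The remaining 5 alpha genes passed in neither comparison, among them the abundant Psma7, at 348 to 479 CPM in TAM and 344 to 354 CPM in BMDM_T.

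Of the constitutive beta ring genes, 3 of 7 were higher against BMDM_T (Psmb4, Psmb5 and Psmb6) and 4 of 7 against BMDM_H (the same with Psmb7). The catalytic Psmb5 and Psmb6 rose by 0.68 ± 0.21 and 0.71 ± 0.19 on the log2 scale against BMDM_T, and by 0.71 ± 0.22 (0.59, adjusted p = 0.0561, without BMDM_H replicate 2) and 0.87 ± 0.19 against BMDM_H. Psmb4, a structural subunit, stood at 901 ± 109 CPM in TAM (SD, n = 3), 617 ± 52.8 in BMDM_T (SD, n = 4) and 578 ± 90.0 in BMDM_H (SD, n = 4). The differences were 0.55 ± 0.17 and 0.64 ± 0.17. The structural subunits Psmb1, Psmb2 and Psmb3 passed in neither comparison. Psmb7 exons overlap those of Nek6 on the opposite strand, which stood at 47.0 CPM in TAM, 2.62 CPM in BMDM_T and 4.08 CPM in BMDM_H. The difference of Psmb7 from BMDM_H (0.59 ± 0.21, adjusted p = 0.0199) was not past the threshold without BMDM_H replicate 2 (0.48), BMDM_H replicate 3 (0.48) or TAM replicate 2 (0.50).

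Summed over its 14 alpha and constitutive beta genes, the core stood at 3558 ± 63.5 CPM in TAM (SD, n = 3), 2717 ± 56.1 in BMDM_T (SD, n = 4) and 2514 ± 118 in BMDM_H (SD, n = 4). The lowest TAM library held 3486 CPM and the highest marrow library 2792 CPM. The 17 genes of the 19S particle summed to 2783 ± 315, 2524 ± 250.3 and 2311 ± 204 CPM, and there the TAM range of 2516 to 3131 CPM overlapped the BMDM_T range of 2264 to 2820 CPM.

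The 19S base carries the ATPases Psmc1 to Psmc6, which unfold the substrate, and the scaffolds Psmd1 and Psmd2. Against BMDM_T 3 of 8 were higher (Psmc2, Psmc4 and Psmd1), and against BMDM_H 4 of 8 (Psmc4, Psmc5, Psmd1 and Psmd2). Psmd1 stood at 157 to 188 CPM in TAM, 103 to 136 CPM in BMDM_T and 91.1 to 94.8 CPM in BMDM_H, with no overlap between any of the groups. Its log2 difference was 0.54 ± 0.15 against BMDM_T (adjusted p = 0.00377) and 0.90 ± 0.15 against BMDM_H (adjusted p = 4.99e-05). The calls of the ATPases were lost when single libraries were left out. Against BMDM_T, Psmc2 (0.49 ± 0.17) lost its call without BMDM_T replicate 3 (0.39), TAM replicate 1 (0.45) or TAM replicate 3 (0.42), and Psmc4 (0.43 ± 0.15) without BMDM_T replicate 3 (0.36) or TAM replicate 1 (0.36). Against BMDM_H, Psmc4 (0.43 ± 0.16) lost it without BMDM_H replicate 2 (0.41), BMDM_H replicate 4 (0.38), TAM replicate 1 (0.37) or TAM replicate 3 (0.43). Psmc5 (0.68 ± 0.25) lost it without TAM replicate 1 (0.50), TAM replicate 2 (0.51) or any of BMDM_H replicates 1 to 3 (0.69, 0.54 and 0.68). The ATPases Psmc1, Psmc3 and Psmc6 passed in neither comparison, and Psmc1 was nearly level, at 228 ± 4.54 CPM in TAM (SD, n = 3) and 231 ± 46.3 in BMDM_T (SD, n = 4).

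The lid removes ubiquitin before degradation. Of its 9 genes, with the ubiquitin receptor Psmd4 counted among them, 4 were higher against BMDM_T (Psmd6, Psmd11, Psmd12 and Psmd14) and 6 against BMDM_H (Psmd3, Psmd7, Psmd8, Psmd11, Psmd12 and Psmd14), while Psmd13 was lower in both. Psmd12, a structural lid subunit, stood at 63.9, 67.9 and 83.0 CPM in TAM, 35.5, 52.1, 32.3 and 45.1 CPM in BMDM_T, and 31.8, 45.0, 27.9 and 28.6 CPM in BMDM_H. All TAM libraries were above all marrow libraries, with a log2 difference of 0.79 ± 0.21 against BMDM_T (adjusted p = 0.00269) and 1.05 ± 0.22 against BMDM_H (adjusted p = 0.000378). Psmd6, another structural lid subunit, stood at 56.1, 47.2 and 75.7 CPM in TAM, 37.7, 35.3, 31.2 and 25.3 CPM in BMDM_T, and 40.6, 57.9, 29.8 and 33.8 CPM in BMDM_H. It was clear of BMDM_T (0.90 ± 0.23, adjusted p = 0.00248) and overlapped BMDM_H through BMDM_H replicate 2 (0.50 ± 0.23, adjusted p = 0.0724). Psmd14, the deubiquitinating enzyme of the lid, was 0.80 ± 0.25 higher against BMDM_T (adjusted p = 0.00847) and 0.83 ± 0.25 against BMDM_H (adjusted p = 0.00881), which became 0.50 (adjusted p = 0.103) and 0.54 (adjusted p = 0.0897) without TAM replicate 3. Psmd3 (0.60 ± 0.19) and Psmd7 (0.76 ± 0.23) lost their calls against BMDM_H without TAM replicate 1, at 0.38 and 0.53.

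Psmb3, Psmd4, Psmd5 and Psmg3 had negative log2 differences of TAM from both marrow groups, without a call. Psmd13, a structural lid subunit, was the only member called lower in both comparisons. In TAM it stood at 383, 313 and 219 CPM, 399.5, 321, 529 and 572 CPM in BMDM_T, and 452, 352, 443 and 645 CPM in BMDM_H. TAM replicate 1 lay within both marrow ranges, so the groups overlapped. TAM differed by -0.58 ± 0.23 against BMDM_T on the log2 scale (adjusted p = 0.0388) and -0.63 ± 0.24 against BMDM_H (adjusted p = 0.0296). The call was lost when any of several libraries was left out. Against BMDM_T it was lost without TAM replicate 2, TAM replicate 3, BMDM_T replicate 3 or BMDM_T replicate 4, with log2 differences of -0.62, -0.40, -0.52 and -0.47, and against BMDM_H without TAM replicate 2, TAM replicate 3 or BMDM_H replicate 4 (-0.65, -0.43 and -0.46). With the replicate block it was lost in both comparisons (-0.42, adjusted p = 0.0744, and -0.47, adjusted p = 0.0532), and with total counts alone against BMDM_T (-0.43, adjusted p = 0.111). Exons of Psmd13 overlap those of Sirt3 on the other strand, which was 21.1 CPM in TAM and 20.5 CPM in BMDM_T.

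Assembly chaperones pair up the subunits and leave the finished particle. Of the 6 tested, 2 were higher against BMDM_T (Psmg1 and Psmg4) and 3 against BMDM_H (with Psmg2). Psmg4, which acts in alpha ring assembly, stood at 153, 149 and 151 CPM in TAM, 75.4, 83.2, 87.7 and 81.2 CPM in BMDM_T, and 83.6, 78.8, 89.3 and 107 CPM in BMDM_H. Its TAM libraries differed little among themselves and were above every marrow library. On the log2 scale Psmg4 was 0.88 ± 0.15 higher against BMDM_T (adjusted p = 4.11e-05) and 0.78 ± 0.15 against BMDM_H (adjusted p = 0.000227; 0.45 and 0.0581 after thinning to the lowest library total).

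Psmg1, which works as a dimer with Psmg2, had low counts. It stood at 32.8, 23.3 and 33.9 CPM in TAM, 15.1, 15.1, 24.2 and 12.6 CPM in BMDM_T, and 11.1, 16.9, 13.0 and 26.0 CPM in BMDM_H. TAM replicate 2 lay inside both marrow ranges. Psmg1 differed on the log2 scale by 0.87 ± 0.28 against BMDM_T (adjusted p = 0.0112; 0.75 and 0.0534 without TAM replicate 3) and 0.95 ± 0.30 against BMDM_H (adjusted p = 0.00964; 0.74 and 0.0593 without BMDM_H replicate 1). Psmg2 passed against BMDM_H (0.70 ± 0.29, adjusted p = 0.045) and lost the call in 13 of 19 alternative analyses. The base chaperones Psmd5 and Psmd10 passed in neither comparison, nor did Psmg3. The same held for the nuclear activator Psme3, at 61.0 to 61.7 CPM in TAM and 53.8 to 87.5 CPM in BMDM_T, and for the large activator Psme4.

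Psmc3ip, the member that is no subunit, stood at 12.8, 10.1 and 14.7 CPM in TAM, 23.7, 24.4, 33.5 and 16.2 CPM in BMDM_T, and 15.9, 14.5, 14.9 and 7.81 CPM in BMDM_H. BMDM_T stood above the other groups in every library. The log2 difference of TAM from BMDM_T was -0.92 ± 0.28 (adjusted p = 0.00808). Mlx, whose exons overlap it on the opposite strand, was lower too (-0.88 ± 0.17, adjusted p = 0.000136). Genes of the cell cycle summed to 801 to 851 CPM in TAM and 1947 to 2938 CPM in marrow, and their part in the Psmc3ip values was not tested.

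**Figure D4:**
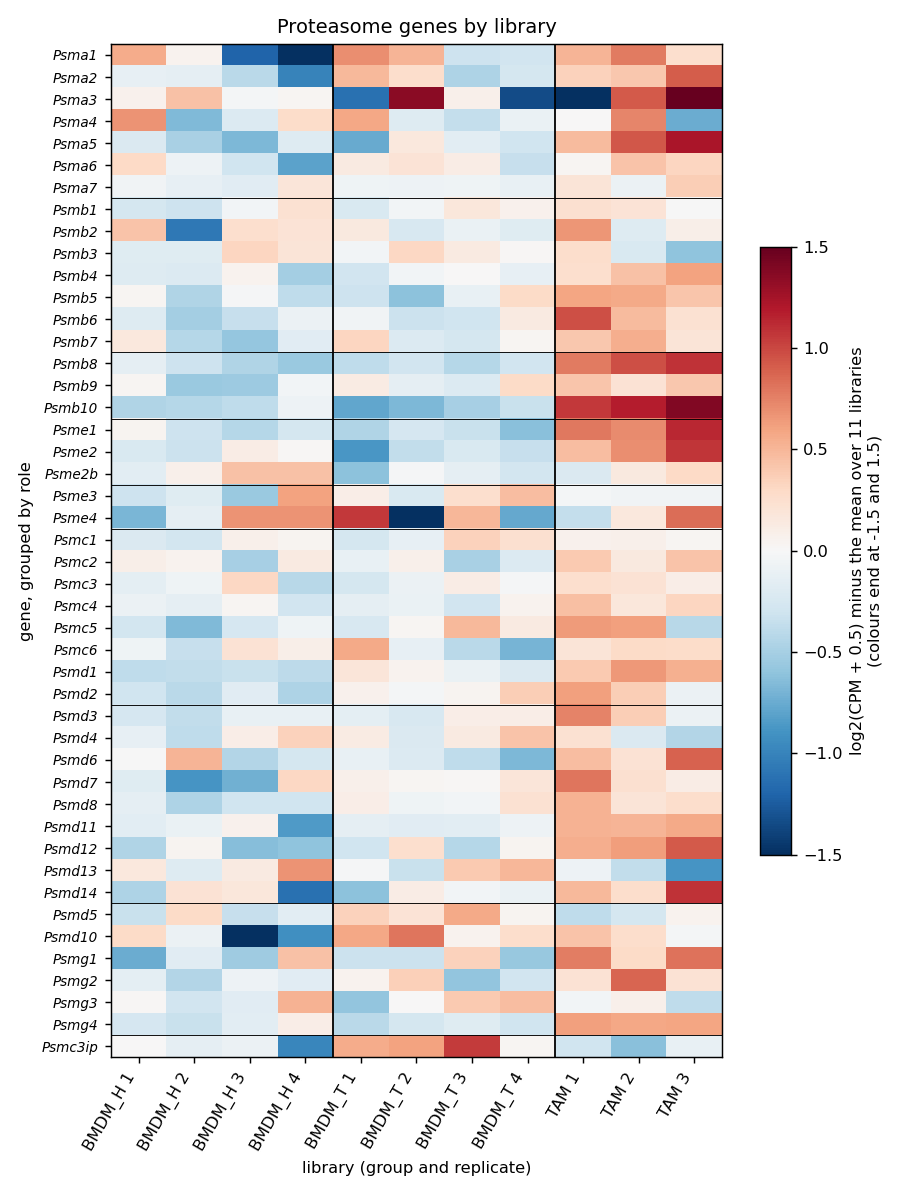
Log2(CPM + 0.5) of each tested member (vertical, grouped by role) in each of the 11 libraries (horizontal), minus the mean of that member over the libraries, with colours ending at -1.5 and 1.5. Psmb8, Psmb10, Psme1 and Psme2 are red in all 3 TAM libraries, Psmd13 is blue in TAM replicates 2 and 3, and Psma1 is red in replicate 1 and blue in replicates 3 and 4 of both marrow groups.

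Marrow cells of mice with and without a tumor were compared next. By edgeR, 0 of 46 members passed at an adjusted p of 0.05, where 4.82% of the 7518 genes did, and DESeq2 and limma-voom gave 0 as well. At an unadjusted p under 0.05 there were 5 members, or 10.9%, against 17.6% of all genes. The median log2 difference was 0.09 for the members and -0.01 for all genes. Markers of the cell types in the gate differed between the groups. In BMDM_T 7 of 15 neutrophil genes were higher, and 4 of 14 macrophage and 7 of 7 erythroid genes were lower. The erythroid sums were 6.31 to 21.9 CPM in BMDM_T and 59.7 to 304.5 CPM in BMDM_H. Of 11 monocyte genes 5 were lower and 1, Ifitm6, was higher (1.32 ± 0.21, adjusted p = 0.00066 by edgeR). The monocyte sums overlapped, at 3974 to 6467 CPM in BMDM_T and 3524 to 6159 CPM in BMDM_H. The part of these cell types in the values below was not tested.

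The immunoproteasome and PA28 genes did not pass in either direction. Their log2 differences, BMDM_T minus BMDM_H, were 0.01 ± 0.15 for Psmb8 (adjusted p = 0.995), 0.29 ± 0.17 for Psmb9 (0.421), -0.23 ± 0.16 for Psmb10 (0.513), -0.18 ± 0.16 for Psme1 (0.622) and -0.33 ± 0.18 for Psme2 (0.362). The libraries of the groups overlapped for all 5. The value for Psmb8 carries no direction, since it was -0.10 with scaling to total counts alone.

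The 5 members with the smallest p were all higher in BMDM_T and were named after their values were seen. Psmd2, a scaffold of the base that receives ubiquitin-like domains, was 175 ± 22.1 CPM in BMDM_T and 128 ± 11.5 in BMDM_H (SD, n = 4 each), a log2 difference of 0.45 ± 0.17 (adjusted p = 0.154). Psmd1, its partner scaffold, gave 0.36 ± 0.15 (adjusted p = 0.203), and the lid subunit Psmd8 gave 0.35 ± 0.15 (adjusted p = 0.21). Psmd10, also known as gankyrin, gave 0.72 ± 0.29 (adjusted p = 0.182) and Psmc3ip 0.78 ± 0.30 (adjusted p = 0.154). For 4 of them, Psmc3ip, Psmd1, Psmd2 and Psmd8, every BMDM_T library exceeded every BMDM_H library, where 5.99% of all genes did so, and for 0 members was the reverse true (5.2%). The share of 8.7% of members is thus little above that of all genes.

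Genes that work with the proteasome were taken from a list of 36 ubiquitin, shuttle, deubiquitinase and transcription factor genes, of which 25 were tested. Against BMDM_T 7 were higher in TAM and 1 lower, with a median of 0.32, where 30.1% of all genes were higher and 28.7% lower. Against BMDM_H 9 were higher and 1 lower, with a median of 0.17, where the shares over all genes were 28% and 28.3%. Zfand2a, a heat- and arsenite-inducible proteasome adaptor, rose by 2.29 ± 0.21 against BMDM_T (116 ± 9.21 CPM and 23.7 ± 6.26). Nfe2l2, the oxidative stress factor that acts through antioxidant response elements, rose by 1.39 ± 0.23. Shfm1, a small lid subunit that the symbol rule does not take in, was lower by contrast (-0.94 ± 0.16, adjusted p = 6.07e-05), at 490.4 ± 70.6 CPM in TAM (SD, n = 3) and 940 ± 87.6 in BMDM_T (SD, n = 4). Against BMDM_H it was lower as well (-0.69 ± 0.16, adjusted p = 0.00135). Pomp, the maturation factor of the core, and Nfe2l1, the factor that raises proteasome genes when degradation is impaired, were chosen after their values were seen. Pomp rose by 0.40 ± 0.14 (adjusted p = 0.0214) and Nfe2l1 by 0.49 ± 0.18 (adjusted p = 0.0219) against BMDM_T. Between the marrow groups 0 of the 25 passed by edgeR, DESeq2 or limma-voom. At an unadjusted p under 0.05 there were 5, beside 17.6% of all genes.

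The class I peptide pathway receives the products of the proteasome. Of its 14 genes, 11 were higher in TAM and 1 lower in each comparison, with a median log2 difference of 1.45 against BMDM_T (30.1% of all genes higher and 28.7% lower) and 1.62 against BMDM_H (28% and 28.3%). Lap3, a leucine aminopeptidase, rose by 3.04 ± 0.22 against BMDM_T, and Calr, a chaperone of class I loading, by 1.64 ± 0.18. The cytosolic aminopeptidase Npepps was the lower one (-1.44 ± 0.16). Nlrc5, the transactivator of class I genes, chosen after its value was seen, rose by 2.76 ± 0.34 (adjusted p = 7.94e-07), from 7.63 to 51.2 CPM. Between the marrow groups Pdia3 (1.06 ± 0.24, adjusted p = 0.0104) and Calr (0.72 ± 0.17, adjusted p = 0.0139) were higher in BMDM_T, and the other 12 did not pass. That count of 2 became 1 without BMDM_H replicate 1 or BMDM_H replicate 3, and 0 without both shallow libraries. Of all genes tested, 4.82% passed between the marrow groups in either direction.

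Of 24 interferon gamma signalling and target genes 23 were tested. In TAM 15 were higher and 3 lower than in BMDM_T (median 1.22), beside 30.1% and 28.7% of all genes. Against BMDM_H 16 were higher and 3 lower (median 0.90), beside 28% and 28.3%. The leading genes were Cd74 (4.76 ± 0.30), Cxcl10 (3.62 ± 0.27), Gbp5 (3.38 ± 0.36) and Gbp3 (3.06 ± 0.30), of which Cd74 is also the class II invariant chain that macrophages express. Irf1, a factor through which interferon gamma acts on the immunosubunit genes, was chosen after its value was seen. It did not pass against BMDM_T (-0.15 ± 0.18, adjusted p = 0.469), at 303 ± 59.4 CPM in TAM and 338 ± 58.8 in BMDM_T. Between the marrow groups 0 of 23 passed by edgeR or limma-voom and 1 by DESeq2. At an unadjusted p under 0.05 there were 6, beside 17.6% of all genes.

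Other cells that carry the immunoproteasome were followed by their markers. The summed level of 4 T and NK cell genes was 13.9 to 20.2 CPM in TAM and 199 to 310.4 CPM in marrow, and that of 5 B cell genes 6.67 to 13.8 CPM in TAM, with Cd79a, Ms4a1 and Vpreb3 at 0 counts, and 121 to 416 CPM in marrow. The 3 measured dendritic cell genes summed to 5.69 to 22.8 CPM in TAM and 9.55 to 29.8 CPM in marrow, and 7 epithelial genes to 66.7 to 103 CPM in TAM and 12.9 to 62.5 CPM in marrow. The lymphocyte sums were lower and the epithelial sums higher in TAM, and their part in the proteasome values was not tested.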

How the data were processed

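RNA was measured in 17 libraries of 3'-end mRNA with a sample barcode and a molecular identifier, and the 11 of batch 1 were used. The tools named for the reads are STAR 2.4.2a, HTSeq and bcl2fastq, with mm10 as the build, per the submitters' processing notes. Not given in the sources used here: the annotation, strand setting, gene filter and collapsing of identifiers. The authors deposited raw counts per gene in 1 table of 24421 entries, of which 14214 have no symbol. Every per-sample column could be assigned to a sample. Batch 2 shares no gene order with the symbols: Spearman correlations between batches ran from -0.018 to 0.002 over 66 pairs, against 0.921 to 0.958 within BMDM_H of batch 1.

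From these counts, edgeR 4.0.16 in R 4.3.3 was run on all 3 groups together (filterByExpr, TMM, glmQLFit, glmQLFTest), with Benjamini-Hochberg adjustment over 7518 genes and calls at an adjusted p under 0.05. CPM values use TMM factors, errors of levels are SD and errors of log2 differences are SE. Ratios used a pseudocount of 0.5 and exact two-sided permutation tests (scipy 1.17.1). The code was checked on simulated data. Replicates differed by more than sampling noise (chi-square per degree of freedom 3.07 to 16.3), so each library was 1 sample. The labels do not tie replicates to separate animals, and a p-value then covers only the spread among libraries, which could be technical. Totals of 387940 to 3747929 counts limit the precision, most in BMDM_H replicates 3 and 4.

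Deviations from the group mean were correlated between same-numbered BMDM_T and BMDM_H libraries (0.22, 0.24, 0.13 and 0.13 over all genes tested), which met the limit of 0.1 for reading the numbers as pairs. Between TAM and BMDM_T these correlations were 0.02, -0.03 and 0.08, and between TAM and BMDM_H -0.05, -0.05 and 0.07. The source of the pairing is not stated in the labels, and all marrow results are unpaired unless a block or pairs are named. The paired test of the ratios was added after the data had been seen.

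The members, their roles and the gene lists were chosen with earlier results of these data known. Given with values were the 5 immunoproteasome and PA28 genes, the 4 other called members with the largest rise and fall in each comparison with TAM, and up to 4 genes per partner list with the smallest p; a few items are not reported here. Alternatives were RLE factors, total counts alone, no filter, DESeq2 1.42.0, limma-voom (limma 3.58.1), 2 groups only, the block, thinning to the lowest total, leaving out both shallow BMDM_H libraries and leaving out each library. Positions are from GENCODE M21 and promoters from RefSeq (GRCm38.p6). Psme2b and Psme2 transcripts were aligned with blastn 2.17.0.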

Additional observations from a re-analysis of the deposited data

Results flagged for a closer look

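In checks of groups of 4 libraries for an extreme library (102 checks), only Psmc2, an ATPase of the 19S base, stood apart, and once. BMDM_H replicate 3 was at 72.5 CPM while the other 3 libraries of that group lay at 106 to 112 CPM, so the gap took up 0.85 of the whole range, above Dixon's 95% limit. Chance alone gives such a gap in about 1 in 20 groups, so 1 in 102 checks is not above that rate. BMDM_H replicate 3 had the second-lowest total, at 556565 counts.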

How the results depend on the processing

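Over the alternative analyses, 17 members higher in TAM than in BMDM_T became 14 to 25, and 24 higher than in BMDM_H became 18 to 24; leaving out single libraries gave 15 to 20 and 20 to 24. Members lower than in BMDM_T numbered 2, but 1 with total counts alone, with the replicate block and after thinning, and 1 to 3 without single libraries. Members lower than in BMDM_H numbered 1, but 0 with the replicate block and without both shallow BMDM_H libraries, and 0 to 1 without single libraries. With the replicate number as a block, 20 members were higher and 1 lower against BMDM_T, 24 and 0 against BMDM_H. Between the marrow groups 0 passed with the block. Only the marrow groups met the limit for reading replicate numbers as pairs, so for TAM the block is not a pairing. Of the 19 members called against BMDM_T 12 kept the call in every alternative, and of the 25 against BMDM_H 13 did. Psmb8 between the marrow groups changed sign, to -0.10 with total counts alone, -0.02 with 2 groups only and -0.12 without both shallow libraries, and ran from -0.05 to 0.10 without single libraries. The log2 ratio of Psmb8 to Psmb5 between the marrow groups ran from -0.15 to 0.15. Total counts alone moved the median of all genes from 0.03 to 0.18 for TAM against BMDM_T and from -0.01 to -0.12 between the marrow groups, and the members' median stood 0.32 above it for TAM against BMDM_T either way. Thinning ended the calls of Psmd6, Psmd11 and Psmg1 against BMDM_T, at log2 differences of 0.62, 0.38 and 0.55, and of Psmb7, Psmc5, Psmd11, Psmg1 and Psmg4 against BMDM_H, at 0.22, 0.44, 0.17, 0.89 and 0.45. Partner genes higher than in BMDM_T numbered 7, but 11 with total counts alone and 4 after thinning, with 1 lower becoming 2. Interferon genes lower than in BMDM_T fell from 3 to 1 in both settings, and those higher than in BMDM_H from 16 to 9 after thinning. The causes were not tested.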

Other observations

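Psma1, an alpha ring subunit, differed by replicate number in the marrow. It stood at 126, 110.1, 62.3 and 63.1 CPM in BMDM_T replicates 1 to 4 and at 114, 80.4, 33.5 and 26.0 CPM in BMDM_H replicates 1 to 4, so replicates 1 and 2 were above replicates 3 and 4 in both groups. Its TAM libraries stood at 111, 133 and 92.3 CPM. The log2 difference of TAM from BMDM_H was 0.66 (adjusted p = 0.0858), and passed with the replicate block (0.68, adjusted p = 0.0122) and without BMDM_H replicate 1 (1.07, adjusted p = 0.01). Over the 46 tested members, same-numbered marrow libraries deviated from their group means with r = 0.17, 0.43, 0.39 and 0.30, which describes these libraries across genes that are not independent.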
